A study of Arabidopsis thaliana with 12 samples.

Results

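Transcript levels at 12am were compared with those at 6pm in Arabidopsis thaliana seedlings 10 days old, of which the aerial part was taken. The 12am harvest lay 18 h after lights on and 2 h into the dark, and the 6pm harvest lay 12 h after lights on, in the light. The comparison rests on 6 of the 12 arrays of the data set, 3 at 12am and 3 at 6pm. It was chosen by the harvest time in the labels and covers 14185 of 22746 probe sets without controls, those with 3 or more arrays at a log2 expression of 4 or above. Both groups were wild type of the Columbia ecotype, untreated, grown on agar with Murashige and Skoog salts and 1% sucrose. Days had 16 h of light, which began at 6am, and nights lasted 8 h. The arrays were 1-colour Affymetrix arrays, hybridised with biotin-labelled cRNA that had been made from total RNA by oligo(dT) priming. A line that overexpresses the clock gene CCA1 is named in the design and was not analysed here.

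Plants tell the end of the day from photoreceptors, from their sugar status and from the circadian clock, a set of genes that repress one another in turn and gate other genes to times of day. In daylight the leaves fix carbon and store part of it as starch, and in the dark they live on that starch while hypocotyls and leaves go on growing, for which the cell wall must be loosened. Cold-response genes, of which the COR genes are the best known, are switched on by low temperature, and part of them also cycle through the day in warm-grown plants.

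The 6 h between the harvests held 4 h of light and 2 h of dark, so darkness, time of day and the sugar status of the seedling cannot be told apart. In whole shoots, fewer cells of a type and less RNA per cell cannot be told apart either. The labels do not tell whether the 3 replicates of a time were grown or harvested separately. The p-values therefore measure the spread among these samples alone, part of which may be technical.

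Replicate 1 stood apart at both times. At 12am it correlated with replicates 2 and 3 at 0.973 and 0.97 over the tested probe sets, whereas replicates 2 and 3 correlated with each other at 0.993. At 6pm the values with replicate 1 were 0.97 and 0.979, and replicates 2 and 3 correlated at 0.986. The median of 67 transcripts of the plastid genome was 9.89 on replicate 1 against 11.22 and 11.16 on replicates 2 and 3 at 12am, and 9.26 against 11.01 and 10.89 at 6pm. The part of replicate 1 in the results was not tested beyond leaving it out, and the count of calls without it stands beside the main count. Of the leaf markers, 4 of 12 were measured (LHCB4.1, RCA, PRK and SBPASE), with values of 13.28 to 14.39 on the 12am arrays and 12.83 to 14.61 on the 6pm arrays. Of the root markers, 3 of 11 were measured, and their median lay between 8.99 and 10.65 at 12am and between 8.89 and 10.08 at 6pm, in tissue labelled aerial part. PYK10, the root beta-glucosidase of that list, had 11.19 to 11.72 at 12am and 11.35 to 11.87 at 6pm. PRX71 (AT5G64120), a peroxidase of the same list, had 7.14, 10.56 and 10.65 at 12am and 7.41, 7.13 and 7.44 at 6pm. The groups overlapped through 12am replicate 1, and the difference was 2.13 (limma, adjusted p = 0.0596). Without 12am replicate 1 it was 3.28, or 9.73-fold (adjusted p = 1.4e-05), and over all settings the adjusted p ranged from 4.8e-06 to 0.215. The part of root material in the results was not tested.

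About 1 in 5 probe sets differed between 12am and 6pm, nearly as many upwards as downwards. With limma, 2826 of 14185 probe sets (19.9%) had a Benjamini-Hochberg adjusted p below 0.05, which is called a call from here on. Of these, 1412 (9.95%) rose and 1414 (9.97%) fell at 12am. The arrays of the 2 times did not overlap in 5062 probe sets (35.7%), of which 2777 were called (19.6% of those tested). Changes of at least 2-fold were called for 607 probe sets upwards (4.28%) and 545 downwards (3.84%), and changes of at least 8-fold for 32 upwards (0.226%) and 36 downwards (0.254%). The median difference was 0.92 on the log2 scale among the called rises, -0.91 among the called falls and -0.02 over all tested probe sets. With the replicate number as a block, which pairs the samples of one number, 4313 probe sets (30.4%) were called, 2125 upwards and 2188 downwards, and all 2826 were among them. Replicates 2 and 3 alone gave 3972 calls (28%), 1974 upwards and 1998 downwards, and 2557 of the 2826 were among them in the same direction. Of the called probe sets, 1365 were not listed in the annotation table and are unnamed here. Counted with 1 probe set per gene, 1420 of 7676 named genes were called (18.5%), 703 upwards (9.16%) and 717 downwards (9.34%). A name beyond the locus number was given for 240 of the 1420, and only for those is a role stated.

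**Figure D1:**
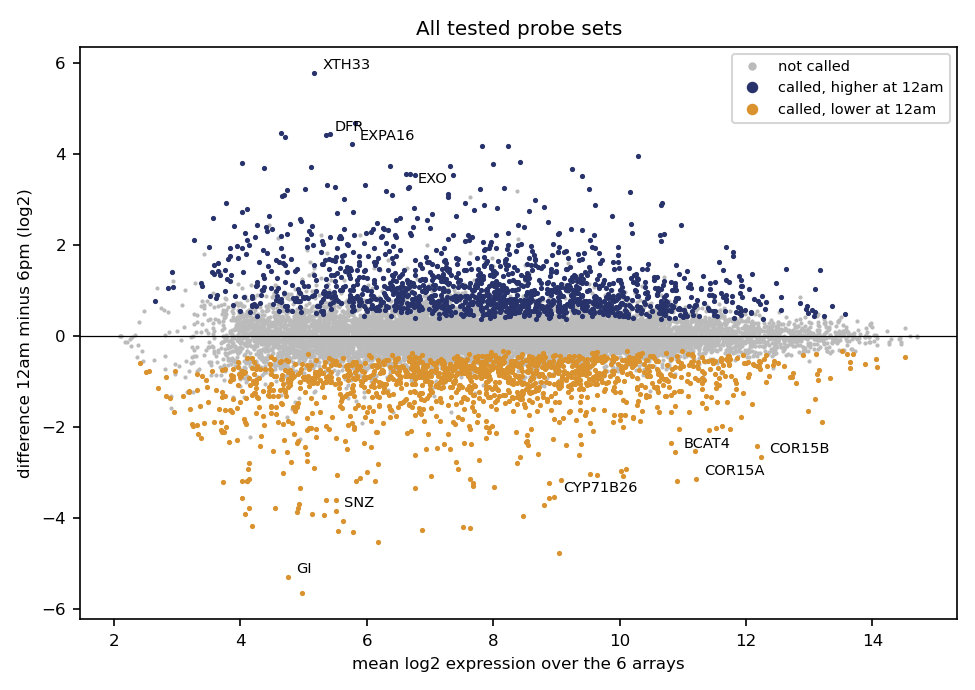
Each point is 1 of the 14185 tested probe sets. The horizontal axis is the mean log2 expression over the 6 arrays, and the vertical axis is the difference 12am minus 6pm on the log2 scale. Blue points were called higher at 12am (1412), orange points were called lower (1414) and grey points were not called. XTH33 lies highest of the labelled genes at 5.77 and GI lowest at -5.30.

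Most of the rising transcripts had their highest mean of the 4 harvest times at 12am itself. Of the 1412 called rises, 878 (62.2%) were highest at 12am and 477 (33.8%) went on to a higher mean at 6am. Of the 1414 called falls, 806 (57%) had their highest mean at 6pm and 537 (38%) at 12pm. The lowest mean of the falling transcripts lay at 12am for 751 (53.1%) and at 6am for 596 (42.1%). Peaks at 6pm among the rises and at 12am among the falls cannot occur by the way the probe sets were chosen. The choice also favours peaks at 12am among the rises and at 6pm among the falls, so these shares are partly built in.

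Of 15 tested genes with a xyloglucan endotransglucosylase (XTH) or expansin symbol, 6 rose and none fell at 12am. Among all named genes 9.16% rose. These proteins loosen the wall during growth. XTH33 (AT1G10550), a xyloglucan endotransglucosylase, had log2 values of 7.88, 8.21 and 8.08 on the 12am arrays and 2.14, 2.39 and 2.35 on the 6pm arrays. All 12am arrays lay far above all 6pm arrays, which were near the lowest value of the data set (2.1). The difference was 5.77 ± 0.24 (SE, n = 3 each, adjusted p = 1.66e-07), at least 16.7-fold when the 6pm mean is set to a log2 of 4. EXPA16 (AT3G55500), an alpha-expansin, had 8.06, 7.74 and 7.79 at 12am and 3.87, 3.61 and 3.50 at 6pm, at least 14.6-fold higher (adjusted p = 2.56e-06). XTH18 rose 6.98-fold (difference 2.80 ± 0.49, adjusted p = 0.00185), with 7.75 to 8.75 at 12am and 4.89 to 6.23 at 6pm. XTH16 rose 4.67-fold (2.22 ± 0.15, adjusted p = 2.25e-06). The other 2 called members, which the naming rule did not take and which were chosen after their values were seen, were the expansin-like genes EXLA1 (4.63-fold, adjusted p = 0.00122) and EXLA2 (4.47-fold, adjusted p = 3.22e-06). In all 6 genes the arrays of the 2 times did not overlap, which holds for 2777 of the 2826 called probe sets. The other 9 members had differences of -1.0 to 0.43 and the median of all 15 was 0.21. With the replicate block 3 of those 9 were called lower at 12am.

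Of 28 tested genes listed as other cell wall enzymes 9 rose, where 9.16% of all named genes rose. Of the rest 1 fell and 18 were not called, and the median difference was 0.31. They include TBL genes, of the TRICHOME BIREFRINGENCE-LIKE family that acetylates wall polysaccharides, as well as cellulose synthase-like enzymes, pectin methylesterases and GH9 glucanases. EXGT-A3, a xyloglucan endotransglucosylase counted here for its symbol, rose (difference 0.93, adjusted p = 0.00187). PMEAMT, a methyltransferase of lipid synthesis that shares the PME symbol, is not a wall enzyme and was not called (difference 0.23, adjusted p = 0.343). TBL40 (AT2G31110) had 6.42, 7.11 and 7.09 at 12am and 4.87, 3.83 and 3.86 at 6pm, a 6.44-fold rise (adjusted p = 4.65e-05). TBL45 rose 4.04-fold (adjusted p = 0.000164) and TBL38 3.16-fold (adjusted p = 0.000926). CSLA03, of the cellulose synthase-like A family, rose 2.84-fold (adjusted p = 0.00036). The 1 fall was GH9C2, an endoglucanase, at least 2.13-fold lower at 12am (adjusted p = 0.00194). With the replicate block 10 of the 28 rose and 2 fell.

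Of 13 tested peptide and receptor genes 3 rose and none fell, where 9.16% of all named genes rose. THE1 (AT5G54380), the receptor kinase THESEUS1 that monitors the state of the cell wall, had 10.59, 10.55 and 10.55 at 12am and 8.11, 8.44 and 8.15 at 6pm. The replicates were tight and the groups well apart, and the rise was 5.02-fold (2.33 ± 0.20, adjusted p = 1.1e-05). RALFL22, a secreted peptide of the RALF family whose members are ligands of receptors of the THE1 family, had 8.82, 9.29 and 9.33 at 12am and 6.83, 7.25 and 6.71 at 6pm. It rose 4.64-fold (adjusted p = 6.06e-05). PSY1R, a receptor kinase for a sulfated growth peptide, rose 1.58-fold (adjusted p = 0.00757). With the replicate block 5 rose and 2 fell. RALFL32 and RALFL34, further RALF peptides, had differences of -0.69 and -0.36 and were not called, at adjusted p of 0.0735 and 0.153.

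Among 14 tested genes of actin, tubulin and their binding proteins 5 rose and none fell, where 9.16% of all named genes rose. ACT11, an actin, rose 3.25-fold (1.70 ± 0.15, adjusted p = 1.5e-05), with 7.05 to 7.35 at 12am and 5.54 to 5.57 at 6pm. TUA1, an alpha-tubulin, rose 2.35-fold (adjusted p = 0.000398), and PLIM2a, an actin-binding LIM protein, at least 1.99-fold (adjusted p = 0.000814). ATMAP65-6, a microtubule-associated protein, rose 1.63-fold (adjusted p = 0.00328). The abundant tubulins TUA6 and TUB5 had differences of -0.61 and -0.16 and were not called (adjusted p of 0.138 and 0.585). The median over the 14 genes was -0.02, the same as that of all tested probe sets. With the replicate block 5 rose and 3 fell.

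EXO (AT4G08950), EXORDIUM, an extracellular protein that promotes cell expansion, had 8.48, 8.38 and 8.04 at 12am and 5.48, 5.01 and 4.62 at 6pm. The groups did not overlap, and the rise was 9.6-fold (3.26 ± 0.28, adjusted p = 1.14e-05). ARL (AT2G44080), ARGOS-LIKE, which acts in cell expansion, rose 3.04-fold (adjusted p = 0.00154). CML30, a calmodulin-like calcium sensor, rose 4.2-fold (adjusted p = 3.39e-05) and IQD24, of a calmodulin-binding family, 2.45-fold (adjusted p = 0.000365). They were the 2 called of 11 tested genes listed for calcium signalling, a share near the 18.5% of all named genes. The median of the list was 0.02. Its member CBL (AT3G57050) is cystathionine beta-lyase, which shares a symbol with calcium sensors. CBL had a difference of -0.34 (limma, adjusted p = 0.158, and 0.0476 with the replicate block).

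**Figure D2:**
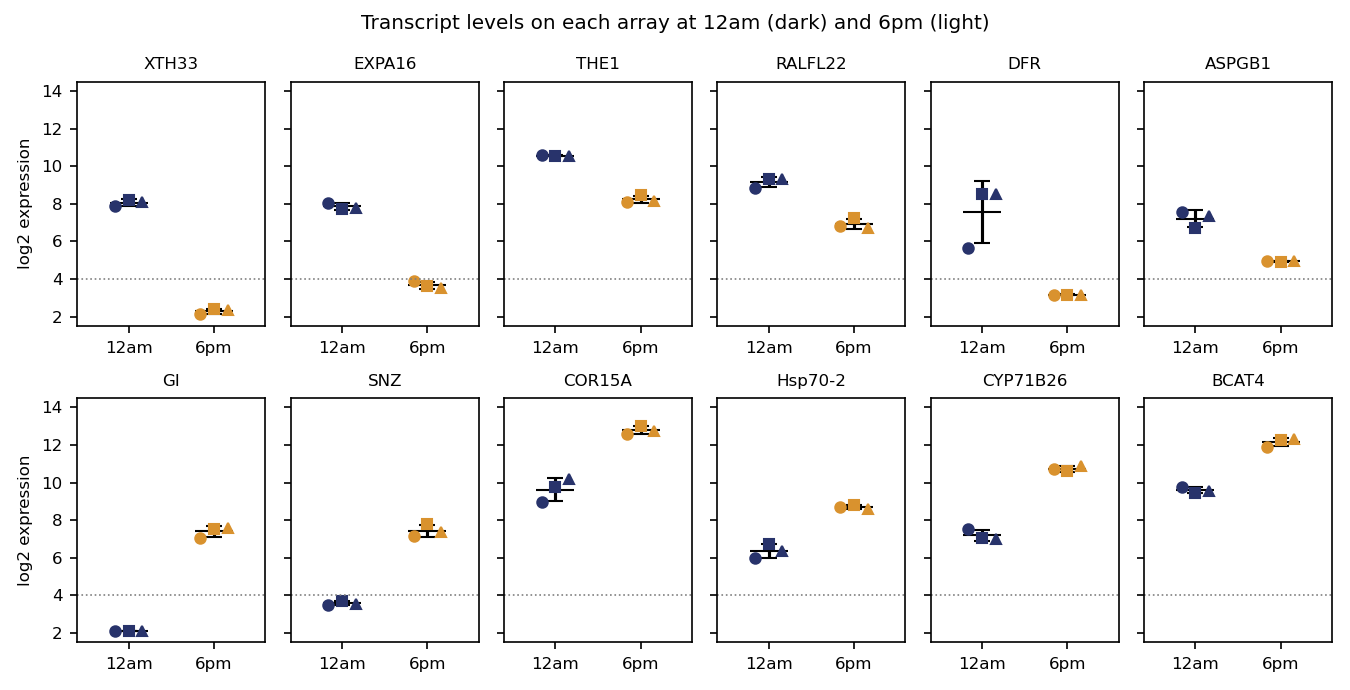
Log2 expression of 12 genes on each array, with 12am (blue) left of 6pm (orange) in each panel. Circles, squares and triangles are replicates 1, 2 and 3, black bars are the mean and the SD of 3 arrays, and the dotted line is the log2 value of 4 used as the bound for fold changes. In all 12 genes the arrays of the 2 times do not overlap, which holds for 2777 of the 2826 called probe sets and 35.7% of all tested. DFR shows the widest spread at 12am, where replicate 1 had 5.64 and the others 8.54 and 8.49.

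Of 6 tested auxin genes 4 rose and none fell, where 9.16% of all named genes rose, and the median was 0.68. GH3.17, which conjugates auxin to an amino acid, rose 3.08-fold (1.62 ± 0.24, adjusted p = 0.000613) and IAA18, an auxin-inducible repressor of auxin responses, 1.64-fold (adjusted p = 0.00717). The calls for GH3.3, another conjugating enzyme (2.42-fold, adjusted p = 0.0139), and YUC2, an auxin synthesis enzyme (at least 1.48-fold, adjusted p = 0.0366), depended on single arrays. That of GH3.3 was lost without 12am replicate 2 or 3 (adjusted p of 0.0602 and 0.0629). That of YUC2 was lost without 12am replicate 2 or 3 or 6pm replicate 1 or 3 (adjusted p of 0.105 to 0.127). Without either of those 12am arrays 2 of the 4 rises were left. Over the settings tried the adjusted p of GH3.3 ranged from 0.000179 to 0.0629 and that of YUC2 from 0.0113 to 0.127. RR16 (AT2G40670), a type-A response regulator that cytokinin induces, had 7.34, 8.46 and 8.48 at 12am and 5.40, 6.00 and 5.12 at 6pm, a 5.99-fold rise (adjusted p = 9.55e-05). It was the only tested member of its family. Of 4 tested genes of gibberellin and brassinosteroid receptors none was called by limma in this fit, none had an unadjusted p under 0.05, and none was called with the replicate block. GID1C was called lower at 12am with replicates 2 and 3 alone (difference -0.92, adjusted p = 0.0154, with 0.0154 to 0.652 over all settings). GID1B was called higher with array quality weights (difference 0.89, adjusted p = 0.0158, with 0.0158 to 0.63 over all settings).

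Among 3 regulators of light responses and development that rose at 12am, HYH and TRY had a still higher mean at 6am and ULT1 did not. HYH (AT3G17609), the homologue of the light-response transcription factor HY5, had 10.28, 9.80 and 9.71 at 12am and 9.0, 8.81 and 8.39 at 6pm. It rose 2.3-fold (1.20 ± 0.19, adjusted p = 0.00104), and its 6am mean of 12.50 lay higher still. HYH was the 1 called of 3 tested light-signalling genes, where 9.16% of all named genes rose. FHL and AFR, the other 2, had differences of 0.33 and 0.20 (limma, adjusted p of 0.441 and 0.754). TRY (AT5G53200), TRIPTYCHON, which inhibits the formation of leaf hairs, had 6.57, 7.18 and 7.66 at 12am and 4.16, 5.30 and 3.84 at 6pm, a 6.53-fold rise (adjusted p = 0.000415), and a 6am mean of 8.71. ULT1 (AT4G28190), ULTRAPETALA1, a regulator of meristem size, had 10.92 to 11.22 at 12am and 8.12 to 8.24 at 6pm, a 7.33-fold rise (adjusted p = 1.92e-07), and a 6am mean of 10.03.

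Of 3 tested flavonoid genes 2 rose, where 9.16% of all named genes rose, and 1 of the 2 calls did not hold when single arrays were left out. DFR (AT5G42800), dihydroflavonol reductase, which makes the precursors of anthocyanin pigments, had 5.64, 8.54 and 8.49 at 12am and 3.17, 3.15 and 3.15 at 6pm. Replicate 1 at 12am lay below the other two, yet above all 6pm arrays. The rise was at least 11.8-fold (4.40 ± 0.61, adjusted p = 0.000419) and at least 22.9-fold without 12am replicate 1 (adjusted p = 6.36e-07), with adjusted p from 4.32e-07 to 0.00907 over the settings tried. UGT78D2, a flavonoid glucosyltransferase, had a rise of 1.72-fold (adjusted p = 0.0322). Its call was lost without 12am replicate 2 or 3 and without each of the 6pm arrays (adjusted p of 0.0587 to 0.107), and over all settings the adjusted p ranged from 0.00184 to 0.107. UGT78D1, a flavonol rhamnosyltransferase, had a difference of 0.47 (adjusted p = 0.114). With the replicate block all 3 tested members rose.

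Of 7 tested genes listed for the breakdown of purines and asparagine 3 rose and none fell, where 9.16% of all named genes rose. The median of the list was -0.02. ALN (AT4G04955), allantoinase, and AAH (AT4G20070), allantoate amidohydrolase, act one after the other in taking apart the purine product allantoin. ALN had 6.64, 7.38 and 7.81 at 12am and 4.86, 5.07 and 4.86 at 6pm, a 5.1-fold rise (adjusted p = 7.38e-05). AAH rose 2.57-fold (adjusted p = 0.000102). ASPGB1 (AT3G16150), an asparaginase, rose 4.82-fold (2.27 ± 0.20, adjusted p = 1.47e-05), whereas ASPGA1, the other asparaginase, had a difference of -0.24 (adjusted p = 0.22). TTL, UGLYAH and URE were the 3 further members and were not called, with differences of -0.11 to -0.02. The TTL measured here is the gene AT4G24900, which RefSeq gives as TITAN-like, a name that does not belong to purine breakdown.

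Genes of the cold response fell together. Of 6 tested members 5 fell and none rose at 12am, where 9.34% of all named genes fell, and their median difference was -1.86. COR15A (AT2G42540), a chloroplast protein that protects membranes in the cold, had 8.98, 9.74 and 10.17 at 12am and 12.60, 13.02 and 12.75 at 6pm. Every 12am array lay below every 6pm array, and the fall was 8.94-fold (-3.16 ± 0.32, adjusted p = 4.65e-05). COR15B, its tandem neighbour, fell 6.43-fold (-2.68 ± 0.20, adjusted p = 3.92e-06), with 10.65 to 11.11 at 12am and 13.48 to 13.65 at 6pm. The pair is similar in sequence, so that probes may read both. LTI30, a dehydrin, fell 4.48-fold (adjusted p = 8.94e-05), COR27, a clock-regulated protein of the cold response, 2.92-fold (adjusted p = 0.00118), and COR47, another dehydrin, 2.03-fold (adjusted p = 0.00349). STZ, the zinc-finger gene also called ZAT10, had 4.91, 5.31 and 5.74 at 12am and 7.84, 3.70 and 3.88 at 6pm. Replicate 1 at 6pm stood alone, the groups overlapped and the difference was 0.18 (adjusted p = 0.918). Without 6pm replicate 1 it was 1.53 (adjusted p = 0.0132), and over all settings the adjusted p ran from 0.000418 to 1.0.

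Late embryogenesis abundant (LEA) proteins and dehydrins, which protect proteins and membranes in drying or freezing tissue, overlap with the cold list in 4 genes. Of 10 tested members 6 fell and none rose, where 9.34% of all named genes fell, and the median was -1.04. Beside COR15A, COR15B, LTI30 and COR47 these were LEA18, 3.13-fold lower at 12am (adjusted p = 0.00536), and M17, 2.09-fold lower (adjusted p = 0.005). At 6am, the means of COR15A and COR15B were lower still, at 6.6 and 7.29, while M17 had its highest mean there, 11.72. The members that fell therefore did not share one course through the day.

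Chaperones fell where they were called. Of 14 tested members 4 fell and none rose, where 9.34% of all named genes fell. The median was -0.42, and with the replicate block 7 fell. Hsp70-2 (AT5G02490), a chaperone of the HSP70 family, had 6.01, 6.73 and 6.35 at 12am and 8.72, 8.83 and 8.62 at 6pm, with no overlap and a 5.13-fold fall (-2.36 ± 0.19, adjusted p = 8.04e-06). ROF2 (AT5G48570), a heat-inducible co-chaperone of the FKBP family, fell 3.48-fold (adjusted p = 0.00195). Fes1B and Fes1A, nucleotide exchange factors of HSP70, fell 2.74-fold (adjusted p = 0.000332) and at least 2.54-fold (adjusted p = 0.00263). The co-chaperones Hop1 and ATERDJ2A had differences of 0.12 and 0.13 and were not called (adjusted p of 0.51 and 0.714).

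**Figure D3:**
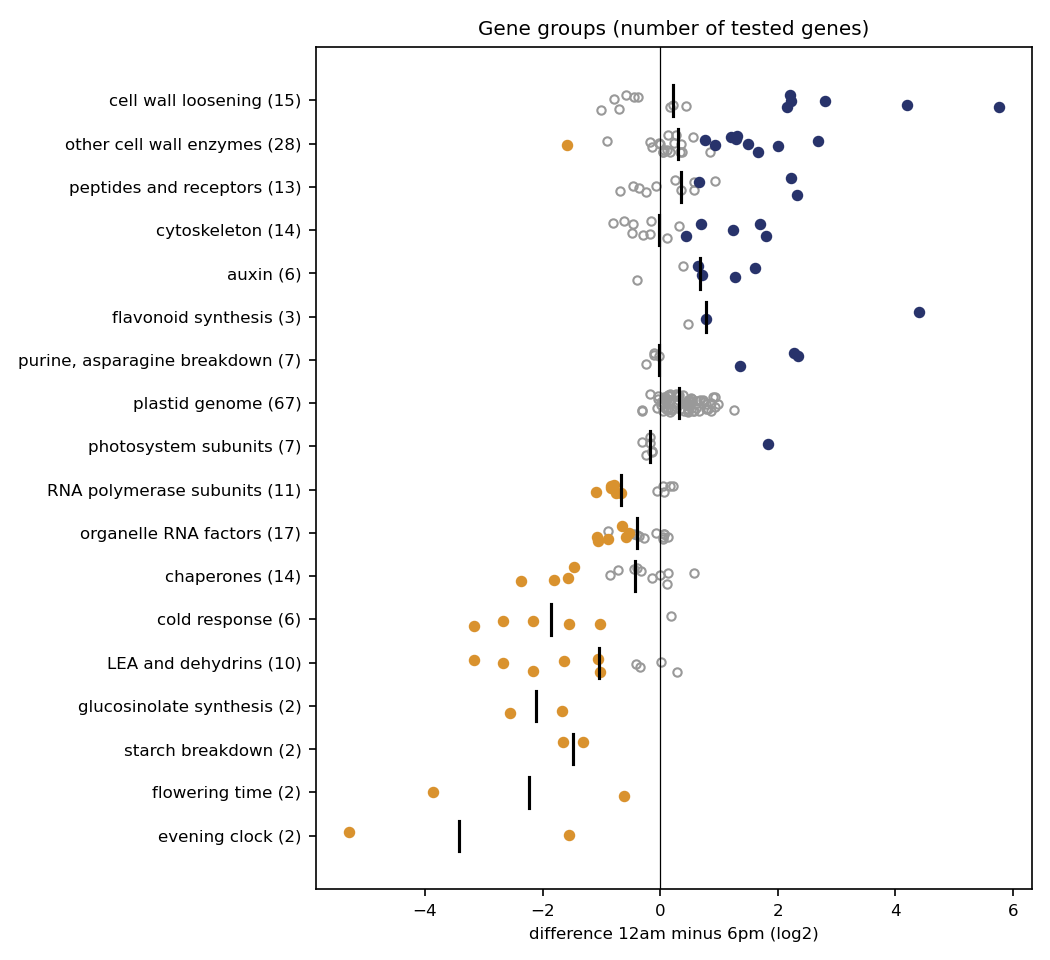
Differences 12am minus 6pm on the log2 scale for 18 gene groups, with the number of tested genes in brackets. Blue points were called higher at 12am, orange points were called lower, open grey points were not called, and black bars are medians. Wall-loosening genes spread from -1.0 to 5.77, and called members of the cold group lie between -3.16 and -1.02. Cold response and LEA share 4 genes, and COR27 is in both the cold and the evening clock group.

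Starch genes were lower at 12am where called. DPE1 (AT5G64860), the plastid disproportionating enzyme that handles short glucans during starch breakdown, had 9.76, 9.34 and 9.5 at 12am and 11.24, 11.06 and 11.27 at 6pm. It fell 3.14-fold (-1.65 ± 0.14, adjusted p = 1.01e-05). PWD (AT5G26570), the phosphoglucan water dikinase that phosphorylates starch at the start of its breakdown, fell 2.5-fold (-1.32 ± 0.13, adjusted p = 3.12e-05). These were the 2 tested genes of starch breakdown, of 16 listed, where 9.34% of all named genes fell. Of 3 tested genes of starch synthesis, APL3, a subunit of ADP-glucose pyrophosphorylase, fell 2.24-fold (adjusted p = 0.00224). APL4, another subunit, had a difference of -0.56 (adjusted p = 0.09, and 0.00185 with the replicate block, which made it a second fall), and SBE2.2, a branching enzyme, one of 0.11 (adjusted p = 0.724). Of 7 tested genes linked with darkness or sugar shortage 2 rose, 1 fell and 4 were not called, and the median difference was 0.06. Among all named genes 9.16% rose and 9.34% fell. The members of this list that were not called had differences of -0.30 to 0.25. With replicates 2 and 3 alone 2 rose and 3 fell. The rises were EXO and AKINBETA1. AKINBETA1, a subunit of the SnRK1 kinase that responds to low energy, rose 2.39-fold (1.26 ± 0.20, adjusted p = 0.00116). D2HGDH, the dehydrogenase of D-2-hydroxyglutarate, fell 1.83-fold (adjusted p = 0.00315).

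Both tested evening genes of the clock (of 14 listed) and both tested flowering-time genes (of 17 listed) fell at 12am. Among all named genes 9.34% fell. GI (AT1G22770), GIGANTEA, which acts in the clock and in the day-length control of flowering, had 2.1 on all 3 arrays at 12am and 7.08, 7.52 and 7.61 at 6pm. The 12am arrays were at the lowest value of the data set, so that the fall was at least 10.6-fold (-5.30 ± 0.19, adjusted p = 8.16e-08). COR27, described above, was the other tested evening gene. SNZ (AT2G39250), SCHNARCHZAPFEN, a repressor of flowering of the AP2 family, had 3.49, 3.71 and 3.55 at 12am and 7.17, 7.78 and 7.38 at 6pm, at least 10.9-fold lower at 12am (adjusted p = 1.06e-07). Its means at 6am and 12pm were 7.43 and 8.17, so that only 12am was low among the 4 times. SMZ, the related repressor, fell 1.53-fold (adjusted p = 0.0186). That call was lost without 12am replicate 2 or 3 (adjusted p of 0.065 and 0.0529), and over all settings the adjusted p ranged from 0.00257 to 0.0822. No gene of the morning clock list had a tested probe set with a given name.

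**Figure D4:**
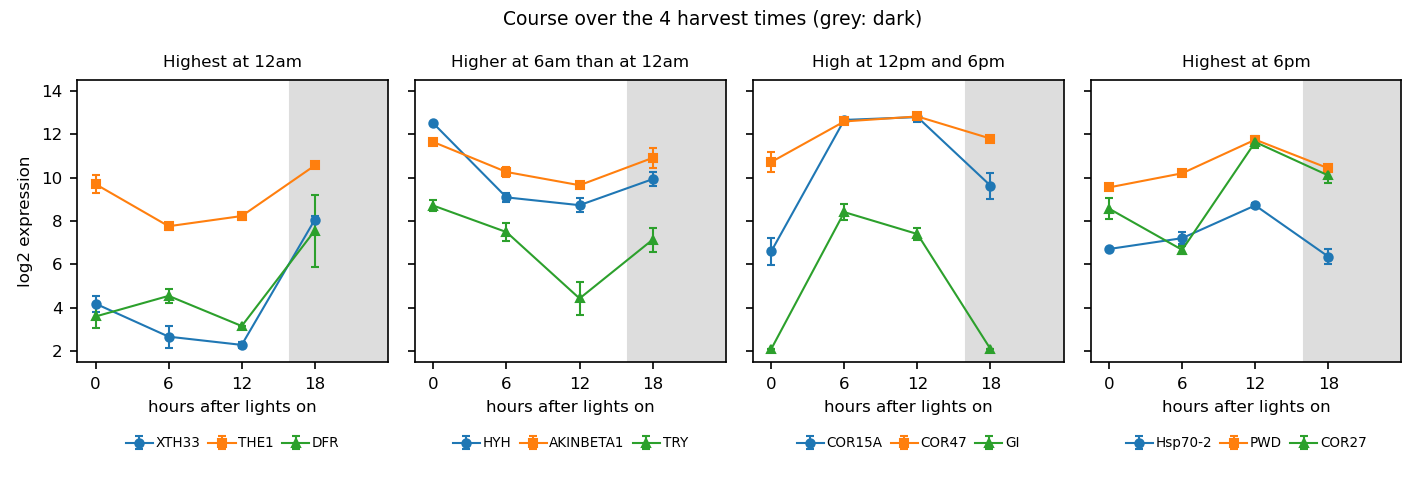
Mean log2 expression at 0, 6, 12 and 18 h after lights on (6am, 12pm, 6pm and 12am), with bars for the SD of 3 arrays and the dark period in grey. XTH33, THE1 and DFR had their highest mean at 12am. HYH, AKINBETA1 and TRY were higher at 6am than at 12am, with means of 12.50, 11.64 and 8.71. COR15A, COR47 and GI were high at 12pm and 6pm, and Hsp70-2, PWD and COR27 were highest at 6pm.

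Specialised metabolism and defence were mostly lower at 12am where called. BCAT4 (AT3G19710), the aminotransferase that opens the chain-elongation pathway of methionine-derived glucosinolates, had 9.77, 9.46 and 9.57 at 12am and 11.92, 12.24 and 12.33 at 6pm. It fell 5.9-fold (-2.56 ± 0.17, adjusted p = 2.04e-06). UGT74B1, a glucosyltransferase of glucosinolate synthesis, fell 3.17-fold (adjusted p = 4.49e-05). The pair were the only tested glucosinolate genes, of 22 listed, where 9.34% of all named genes fell. CYP71B26 (AT3G26290), a cytochrome P450 monooxygenase, had 7.55, 7.04 and 7.02 at 12am and 10.70, 10.62 and 10.90 at 6pm, an 11.6-fold fall (adjusted p = 1.21e-06). Of 13 tested P450 genes 3 fell and none rose, where 9.34% of all named genes fell, and the median was -0.12. CYP78A9 fell 2.11-fold (adjusted p = 0.00277) and CYP71B28 1.78-fold (adjusted p = 0.00113).

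Of 30 tested UDP-glycosyltransferases, which attach sugars to small molecules, 5 rose and 8 fell, with a median of -0.06. Among all named genes 9.16% rose and 9.34% fell. UGT85A4 rose 3.7-fold (adjusted p = 1.5e-05) and UGT74D1 2.07-fold (adjusted p = 0.000302), while UGT74B1, named above, had the third largest fall of the list. Of 13 tested beta-glucosidases, BGLU19 fell at least 6.16-fold (adjusted p = 0.00564), with 5.73, 2.90 and 2.50 at 12am and 6.63, 6.59 and 6.66 at 6pm. BGLU44 fell 2.8-fold (adjusted p = 2.9e-05), and BGLU16 rose 1.85-fold (adjusted p = 0.0116). Of 8 tested defensins and thionins, small antimicrobial peptides, 3 fell and none rose, where 9.34% of all named genes fell. THI2.2, a thionin, fell 4.17-fold (-2.06 ± 0.30, adjusted p = 0.000532). PDF1.2 had a difference of -2.43 (adjusted p = 0.018), and its call was lost without 12am replicate 1 (0.0531) or 6pm replicate 2 (0.069), with adjusted p from 0.000367 to 0.0745 over all settings. PDF2.1 had a difference of -1.24 (adjusted p = 0.0192), and its call was lost without 12am replicate 2 or 3 or 6pm replicate 2 or 3 (0.0564 to 0.069), with adjusted p from 0.000351 to 0.069 over all settings. Without 6pm replicate 2, 1 of the 3 falls was left.

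Of 11 tested subunits of the nuclear RNA polymerases 6 fell and none rose, where 9.34% of all named genes fell. The median was -0.67. NRPD7 and NRPE7, of the plant-specific polymerases IV and V, fell 1.79-fold (adjusted p = 0.00335) and 1.78-fold (adjusted p = 0.00273). NRPA1 and NRPA2, the large subunits of polymerase I, fell 1.69-fold (adjusted p = 0.0107) and 1.59-fold (adjusted p = 0.00484). The call of NRPA1 was lost with only the 6 arrays in the fit (adjusted p = 0.0515), and its adjusted p ranged from 0.00113 to 0.0515 over all settings. NRPC1 and NRPC2, the large subunits of polymerase III, had differences of -0.79 (adjusted p = 0.014) and -1.09 (adjusted p = 0.0162). NRPC1 was dim, with both means at or below the log2 bound used for fold changes. Its fold change with that bound was 1, against 2.13 for NRPC2, so NRPC1 counts among the 6 falls by its adjusted p alone. The calls of both NRPC1 and NRPC2 were lost without 12am replicate 3, 6pm replicate 1 or 6pm replicate 2, with adjusted p of 0.0511 to 0.0694. Over all settings the adjusted p ran from 0.0058 to 0.0541 for NRPC1 and from 0.000497 to 0.0694 for NRPC2. The 5 tested genes of the NRPB series, some of which encode subunits shared with other polymerases, had differences of -0.06 to 0.22 and were not called.

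Nuclear genes listed as factors of chloroplast and mitochondrial RNA fell where called. Of 17 tested members 6 fell and none rose, where 9.34% of all named genes fell, and the median was -0.40. The member HCF101 acts in iron-sulfur cluster assembly and was not called (difference 0.06, adjusted p = 0.794). OTP84 and OTP81, which edit chloroplast transcripts, fell 2.1-fold (adjusted p = 0.00174) and 2.09-fold (adjusted p = 0.00118), and MRL7-L, a plastid protein, fell 1.84-fold (adjusted p = 0.00276). Of the 6 calls 3 were left without 12am replicate 3, without 6pm replicate 2 or without 6pm replicate 3. The vacuolar processing enzymes, cysteine proteases of the vacuole, had 3 falls among 4 tested members, where 9.34% of all named genes fell. BETA-VPE fell 2.2-fold (adjusted p = 0.00741) and GAMMA-VPE 1.94-fold (adjusted p = 0.0109). The call of GAMMA-VPE was lost with only the 6 arrays in the fit (adjusted p = 0.0503), and its adjusted p ranged from 0.000614 to 0.0503 over all settings. DELTA-VPE had a difference of -1.79 (adjusted p = 0.0278), and its call was lost without 12am replicate 2 or 3 and without each 6pm array (adjusted p of 0.0523 to 0.106), while over all settings the adjusted p ranged from 5.51e-05 to 0.106.

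Of 7 tested photosystem subunits and antenna proteins 1 rose, where 9.16% of all named genes rose, none fell, and the median was -0.18. That gene was LHCB4.3 (AT2G40100), a minor antenna protein of photosystem II, with 9.26, 10.12 and 10.42 at 12am and 8.29, 7.91 and 8.13 at 6pm. It rose 3.54-fold (1.83 ± 0.26, adjusted p = 0.000483). LHCB4.1, a related antenna gene, had 14.39, 14.37 and 14.33 at 12am and 14.49, 14.52 and 14.61 at 6pm, a difference of -0.18 (adjusted p = 0.269). None of 3 tested Calvin cycle genes was called by limma in this fit. Their differences were 0.06 to 0.37, 2 had an unadjusted p under 0.05, and 2 were called higher with the replicate block. None of 67 plastid-encoded transcripts was called, where 18.5% of all named genes were, and none had an unadjusted p under 0.05. Of the 67, 61 had a higher mean at 12am, and the median difference was 0.32 against -0.02 over all tested probe sets. With the replicate block 7 were called higher, where 15% of all tested probe sets were. Their level also separated replicate 1 from the others, as given above, so the 61 are not separate observations. Of 8 mitochondrial transcripts none was called or had an unadjusted p under 0.05, and 2 were called higher with the block.

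Many of the steepest changes were in genes that the annotation gives only by locus number. Of the 15 largest rises, ranked with any mean below 4 (log2) raised to 4, 10 were such loci. AT1G06830 had 9.38, 10.60 and 10.97 at 12am and 5.93, 6.15 and 6.39 at 6pm, a 17.8-fold rise (adjusted p = 6.19e-06). AT4G21870 rose 15.3-fold, AT3G23550 13.2-fold, AT5G01740 12.7-fold, AT5G03120 11.7-fold, AT4G17470 9.0-fold, AT2G44500 8.01-fold, AT1G64500 7.89-fold and AT3G05900 7.52-fold. AT1G19380 rose 7.57-fold (adjusted p = 0.00508), and 13.5-fold without 6pm replicate 1 (adjusted p = 0.000141), which had 7.77 where the other 6pm arrays had 5.28 and 5.24. Its adjusted p ranged from 2.4e-06 to 0.0297 over the settings tried.

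Of the 15 largest falls, 10 were loci without a given name. AT3G20340 had 4.82, 3.08 and 3.82 at 12am and 8.83, 7.83 and 8.68 at 6pm, at least 21.8-fold lower at 12am (adjusted p = 3.4e-05). AT1G07050 fell 10.1-fold, AT1G51090 at least 9.91-fold, AT4G30650 9.21-fold, AT1G16850 8.99-fold, AT1G11210 8.87-fold, AT3G09440 8.7-fold, AT1G56300 8.28-fold, AT1G01250 7.96-fold and AT5G51440 7.11-fold, with adjusted p between 2.56e-07 and 0.000261. AT1G07050 had means of 2.15 at 6am, 2.95 at 12pm, 8.43 at 6pm and 5.09 at 12am, so that it was highest at 6pm and second highest at 12am.

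Among 2416 pairs of adjacent loci with both genes tested, both were called in 105 pairs. The direction was the same in 74 pairs, 31 upwards and 43 downwards, and opposite in 31. Among all named genes 18.5% were called. A locus can stand in several of these pairs, as in the run from AT4G15680 to AT4G15710, so the pairs are not separate cases. The tandem pair COR15B and COR15A fell together. The adjacent loci AT4G15680 and AT4G15690 also fell, with differences of -2.47 (adjusted p = 0.000492) and -2.1 (adjusted p = 0.00173). AT4G15690 had 9.66, 7.75 and 8.20 at 12am and 10.52, 10.59 and 10.78 at 6pm, so that replicate 1 at 12am stood nearest to the 6pm level. Where neighbours are alike in sequence their probes may share signal, which was not tested.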

How the data were processed

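Total RNA from 12 samples, 3 at each of 4 harvest times, was measured on 1-colour Affymetrix arrays. The deposited values are log2 expression, made by the authors with GCRMA (affy 1.42.3 in R 3.1, per the submitters' processing notes). The set of arrays that entered each normalization is not given in the sources available, and precision is limited by how few arrays there were. Of 22746 probe sets, 8561 were left out as dim, with fewer than 3 arrays at a log2 of 4 or above. limma 3.58.1 in R 4.3.3 was fitted with harvest time as the factor over all 12 arrays, giving 8 residual and 3.44 prior degrees of freedom, with Benjamini-Hochberg adjustment over 14185 probe sets and a threshold of 0.05, two-sided. The fit was also run on simulated data with independent noise on each array. That setting leaves out the pairing of samples described below, so it does not check the calls against it. Fold changes with a mean under a log2 of 4 set that mean to 4.

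Gene names come from the platform annotation joined to RefSeq. Of the tested probe sets 7718 name 1 gene, 295 several and 6172 are unlisted. A gene is given by its brightest probe set. The comparison and the gene lists were chosen with earlier results of these data known, and 22 lists were added after values were seen. Loci with no name among the RefSeq symbols and synonyms were left out of the lists. Genes named are the 15 largest rises and 15 largest falls among calls that name 1 gene and have no overlap between the 2 times, and for each list up to 4 rises, 4 falls and 2 uncalled members. COR47, M17, EXLA1, EXLA2, EXGT-A3, NRPA1, NRPA2, the NRPB genes, UGLYAH, URE, the neighbouring pairs and the genes of the closing section were named outside this rule, after their values were seen. CBL, PMEAMT and HCF101 were named to tell what their lists hold.

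Samples of the same replicate number deviated together from their group means, with correlations of 0.377, 0.429 and 0.29 between 12am and 6pm. Samples of unlike numbers had correlations of -0.409 to 0.051. The numbers were therefore taken to pair the samples, which the labels do not state. The main fit had no block, so its calls leave this pairing out. 14 alternative settings were tried, covering the filter, the arrays in the fit, the replicate block, the spread estimate, quantile normalization and leaving out each array.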

Additional observations from a re-analysis of the deposited data

How the results depend on the processing

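With the replicate number as a block, which pairs the samples, 4313 probe sets were called (2125 higher and 2188 lower at 12am), and array quality weights gave 4666 (2298 higher and 2368 lower), against 2826 (1412 and 1414) without either. Leaving out 1 array at a time gave 2056 to 2819 calls, 1044 to 1452 of them higher and 1012 to 1367 lower at 12am, and 533 to 718 at least 2-fold higher and 513 to 577 at least 2-fold lower. Of 1805 alternative values of the 130 called genes that the naming rule took, 1651 kept direction and call and 154 kept the direction but lost the call. MCCA had a difference of 0.06, uncalled, and of -0.54 with replicates 2 and 3 alone (adjusted p = 0.0233); the cause was not tested. Counts per gene list stayed within 1.5 times their value in 594 alternative values, were higher by more than that in 78 and lower by more than that in 56. Of all values on the arrays, 29.3% lay within 0.1 of the lowest, so that differences among dim probe sets are bounded by that floor.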

Other observations

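Further genes also differed by limma. Among those that rose at 12am, SCPL34, a serine carboxypeptidase-like protein, was 4.3-fold higher (adjusted p = 1.38e-05), TET10, a tetraspanin, 3.53-fold and PPDK, pyruvate orthophosphate dikinase, 2.87-fold (adjusted p = 5.7e-05). Among those that fell, UGT76E11, a glycosyltransferase, was 3.04-fold lower at 12am, XERICO, a RING-type protein of abscisic acid responses, 2.56-fold, and TMT2, a sugar transporter of the vacuole membrane, 2.31-fold. These genes were chosen after their values were seen.

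Of the 52 gene lists with a tested member, 13 had no called member. They held 117 tested genes, 10 of them with an unadjusted p under 0.05.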
